A study of Homo sapiens with 12 samples.

Results

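Expression of 10 genes of bone morphogenetic protein (BMP) signalling was examined in RNA sequencing of hCMEC/D3, a cultured human line derived from brain microvessel endothelium. The genes are the transcriptional targets ID1, ID2, ID3, ID4, SMAD6 and SMAD7, the ligand BMP4 and the receptors BMPR2, ENG and ACVRL1, taken by gene name from a table of 58735 genes, in which all 10 were found with 1 entry each. The 12 libraries formed 3 groups of 4, namely cells given SiNP_58 nm at 100 µg/mL, cells given SiNP_35 nm at 100 µg/mL and untreated controls. The study's design text gives 24 h as the exposure time, and SiNPs are read here as silica nanoparticles. The line is immortalised and grows attached, and no label says whether controls received a vehicle. Nor do the labels tell if the libraries of 1 group were grown as cultures of their own, so the p-values rest on a spread between libraries that can be technical.

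BMPs bind pairs of type I and type II serine/threonine kinase receptors, which phosphorylate SMAD1, SMAD5 and SMAD9. These join SMAD4 and switch on the ID genes, which code for helix-loop-helix proteins that cannot bind DNA and that hold E proteins off their sites, and the inhibitory SMADs, which shut the receptors down again. In endothelium ACVRL1 (ALK1), BMPR2 and the co-receptor ENG (endoglin) carry this signal. ENG and ACVRL1 are the genes of hereditary haemorrhagic telangiectasia, and BMPR2 is the main gene of heritable pulmonary arterial hypertension.

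Gene reads numbered 9472317 to 10466096 per library at 58 nm, 10039379 to 10469143 at 35 nm and 10039422 to 10678269 in controls. Values are FPKM, that is fragments scaled to gene length and to library size, so that levels can be set side by side between genes. Library 1 of the 58 nm group stood apart from the others of its group. The chi-square per degree of freedom between its gene reads and those of libraries 2, 3 and 4 was 6.36 to 7.74. Those 3 differed from each other by 2.28 to 2.38. At 35 nm libraries 2 and 4 differed by 1.99 and the other pairs by 3.38 to 4.62. Control pairs differed by 2.54 to 3.41. Expression relative to the other libraries also followed the GC content of genes, with Spearman's rho across genes of 0.151 to 0.555 at 35 nm and -0.457 to -0.231 in controls. At 58 nm rho was 0.358 in library 1 and -0.296 to -0.0936 in libraries 2, 3 and 4. Of 10 endothelial markers, 5 averaged at least 1 FPKM (PECAM1, CDH5, VWF, TIE1 and ESAM), TIE1 being the highest at 5.15 FPKM, while KDR, TEK, CLDN5, ERG and EMCN lay below that level. Their summed level was 11.4 to 11.8 FPKM at 58 nm, 10.1 to 11.9 at 35 nm and 10.95 to 12.78 in controls. The 6 pericyte and smooth muscle markers summed to 41.4 to 44.0 FPKM at 58 nm, 38.5 to 43.2 at 35 nm and 39.4 to 42.4 in controls, of which PDGFRB and CSPG4 made up the most. The 4 epithelial markers, with CDH1 listed at 0, summed to 41.1 to 49.2, 38.1 to 45.1 and 48.6 to 51.7 FPKM in the same groups, nearly all of it KRT18. Astrocyte markers (AQP4 at 0) reached at most 0.279 FPKM in sum and leukocyte markers (AIF1 at 0) at most 1.54. At 35 nm PDGFRB and KRT18 fell and CSPG4 rose relative to control (adjusted p = 0.000383, 0.00173 and 0.000331); the part of these genes in the results below was not tested.

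Sequences 250 bases long ending just before the transcription start were taken from RefSeq (GRCh38.p14) for the 9 members that matched. Those of ID1 and SMAD6, targets that were higher at 58 nm than at 35 nm, and of ID4, which had no reads, are shown 5′ to 3′. Capitals mark matches, on either strand, to GGCGNC, a loose form of the GC-rich motif bound by SMAD1 and SMAD5, or to CAGAC, a motif bound by SMAD4. The windows are chr20:31605039-31605288 (plus strand) for ID1, chr15:66701986-66702235 (plus strand) for SMAD6 and chr6:19837120-19837369 (plus strand) for ID4.
ID1: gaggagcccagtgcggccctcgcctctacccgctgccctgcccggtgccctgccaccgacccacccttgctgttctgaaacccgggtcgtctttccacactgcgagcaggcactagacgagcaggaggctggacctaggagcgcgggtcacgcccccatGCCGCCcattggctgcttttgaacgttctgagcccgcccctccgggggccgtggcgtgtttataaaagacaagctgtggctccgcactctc
SMAD6: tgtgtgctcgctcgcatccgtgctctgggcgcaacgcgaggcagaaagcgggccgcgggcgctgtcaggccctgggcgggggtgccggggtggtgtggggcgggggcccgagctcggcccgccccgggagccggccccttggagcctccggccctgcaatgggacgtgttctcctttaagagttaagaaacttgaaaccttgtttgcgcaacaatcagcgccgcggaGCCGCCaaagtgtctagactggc
ID4: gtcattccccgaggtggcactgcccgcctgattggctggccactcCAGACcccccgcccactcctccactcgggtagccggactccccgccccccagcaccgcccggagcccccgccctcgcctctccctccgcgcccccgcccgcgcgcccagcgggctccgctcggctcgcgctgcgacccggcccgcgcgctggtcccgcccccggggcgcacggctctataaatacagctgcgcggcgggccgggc
In the windows of ID1 and SMAD6 the 1 match in each was to GGCGNC, starting at position -91 for ID1 and -23 for SMAD6, counted back from the start. That of ID4 had 1 match to CAGAC, at position -205. In at least 1 window each, GGCGNC was also present for ID2, ID3, SMAD7, BMP4, BMPR2 and ENG. Of these only ID2 was also called higher at 58 nm than at 35 nm. CAGAC was also present for ID3, SMAD7, BMP4 and BMPR2. GGCGNC was present in 43.4% of 35116 promoter windows of the same length and CAGAC in 38% of them. The stricter form GGCGCC, found in 16.4% of windows, was present for BMP4 (in 1 of its 3 annotated starts) and BMPR2, and the E-box CACGTG, found in 6.35%, for BMP4 only. GGCGCC matches are also GGCGNC matches. No match says only that these letters are not in this window.

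Among untreated cells ENG was the most abundant member at 103 ± 3.94 FPKM (SD, n = 4), followed by ID3 at 63.9 ± 0.583, ID1 at 46.3 ± 3.62, BMPR2 at 16.6 ± 1.15 and BMP4 at 7.69 ± 0.417. ACVRL1 at 4.06 ± 0.562 and SMAD6 at 3.91 ± 0.346 differed by less than their spread, as did ID2 at 3.04 ± 0.398 and SMAD7 at 2.96 ± 0.246. ID4 was listed at 0 in all 12 libraries, where 3 reads would have given 0.117 to 0.133 FPKM. The same first 5 genes led in the same order at 58 nm and at 35 nm.

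Log2 fold changes here and below are differences of log2(FPKM + 1), which for low genes are smaller in size than those of the FPKM means. The response to 58 nm particles was set against control first. ID1 and ID3 stood above all control libraries in every 58 nm library, by 0.25 and 0.23 on the log2 scale, but no member passed the test across 12176 genes. Of the 9 members tested, 0 were called at an adjusted p under 0.05 in limma and 2 had an unadjusted p under 0.05 (ID1 and ID3), where 4.13% of all genes were called (2.18% higher and 1.95% lower); limma-voom called 1 (ID3). Their median log2 fold change was -0.04, against 0.0098 over all genes tested. Groups did not overlap for 2 of 9 members, against 13.5% of all genes. At 35 nm ID2, BMP4, ENG and ACVRL1 fell relative to control and SMAD7 rose. These 5 of 9 calls compare with 35.4% of all genes called, and the 4 falls with 15.2% of genes called lower and the 1 rise with 20.2% called higher. The median of the members was -0.19, against 0.0031 over all genes. Groups did not overlap for 6 of 9 members, against 36% of all genes. Between the particles, ID1, ID2 and SMAD6 were higher at 58 nm than at 35 nm, which is 3 of 9 members where 11.4% of all genes were called (3.54% higher and 7.81% lower). The members' median here was 0.16, against 0.0033 over all genes, and groups did not overlap for 3 of 9, against 16.2% of all genes. The members were chosen with earlier results of these data known, so setting these counts beside all genes is description only. Both comparisons with control share the 4 control libraries, and both with the 35 nm group share its 4 libraries.

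**Figure D1:**
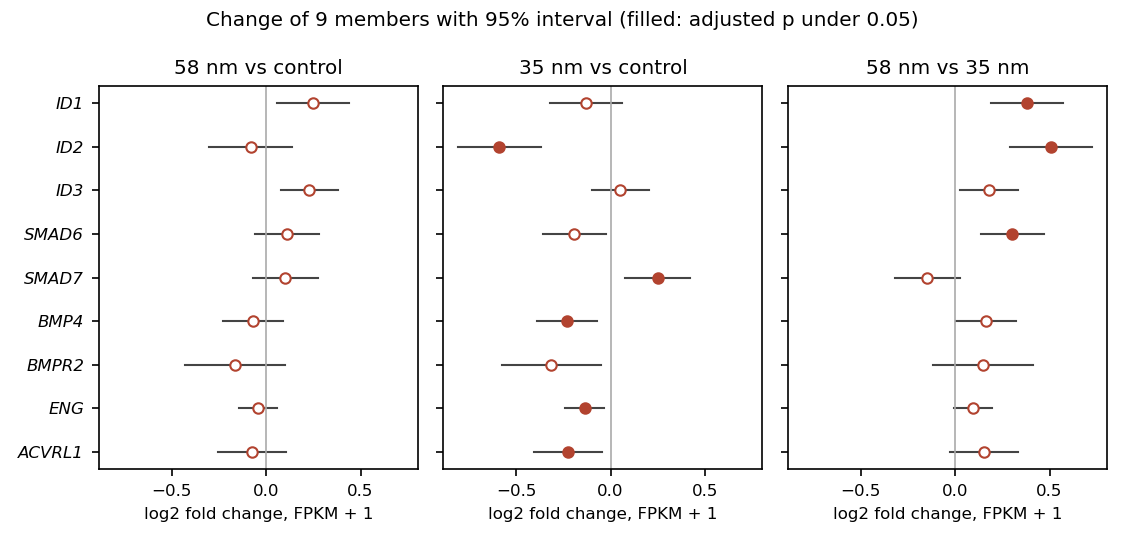
Log2 fold changes on the FPKM + 1 scale of the 9 members tested (points) with 95% intervals (lines) in the 3 comparisons, filled where the adjusted p was under 0.05. At 58 nm against control no point is filled, at 35 nm against control 5 are, and at 58 nm against 35 nm ID1, ID2 and SMAD6 are filled to the right of 0.

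The counts of calls over all genes depended on scaling. Against control at 58 nm 265 genes were higher and 238 lower, and these were 189 and 259 after quantile normalization and 185 and 300 once each library's trends with gene length and GC content were taken out. Between the particles 431 were higher and 951 lower, against 540 and 693 after quantile normalization and 837 and 960 with limma-voom. For 35 nm against control 2463 were higher and 1852 lower, against 2273 and 2401 with limma-voom. Single libraries also moved the counts. The 503 calls at 58 nm against control became 270 and 319 without 58 nm library 2 or 3 and 266, 230 and 290 without control library 2, 3 or 4. The 1382 calls between the particles became 2324, 767 and 723 without 58 nm library 1, 3 or 4, and 799 and 878 without 35 nm library 1 or 3.

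The ID genes are given first, and among them ID2 was called in both comparisons with the 35 nm group. ID2 (ENSG00000115738, GRCh38 chr2:8678845-8684453) had 2.73, 2.93, 2.76 and 2.80 FPKM at 58 nm, 1.88, 2.11, 1.22 and 1.57 at 35 nm, and 3.42, 3.32, 2.86 and 2.57 in controls. Every 35 nm library lay below every library of the other groups, at 27 to 49 reads per library against 59 to 64 at 58 nm and 58 to 80 in controls. At 35 nm ID2 fell to 1.70 ± 0.384 FPKM, against 3.04 ± 0.398 in controls, a ratio of 0.558. The log2 fold change on the FPKM + 1 scale was -0.59 (SE 0.102, adjusted p = 0.000782). At 58 nm ID2 was higher than at 35 nm by 0.51 on that scale (SE 0.102, adjusted p = 0.00727), while 58 nm and control differed by -0.082 (95% interval -0.30 to 0.14). These calls held under all 21 alternatives that could be fitted, with adjusted p of at most 0.00362 and 0.0270. With bulk RNA, fewer cells that express a gene and less of its RNA per cell cannot be told apart.

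ID1 (ENSG00000125968, chr20:31605283-31606515), a common readout of BMP signalling, had 67.4, 52.1, 51.2 and 51.3 FPKM at 58 nm, 44.4, 44.6, 41.4 and 38.4 at 35 nm, and 47.2, 48.0, 48.9 and 40.9 in controls. All 58 nm libraries lay above all others, and library 1 of that group was the highest by far. ID1 was higher at 58 nm than at 35 nm by 0.38 on the log2 scale (SE 0.0878, adjusted p = 0.0163), and by 0.28 (adjusted p = 0.0107) without that library. It lost this call only without the filter on low values (adjusted p = 0.0591). Against control the change was 0.25 at 58 nm (adjusted p = 0.134) and -0.13 at 35 nm (adjusted p = 0.278). The 35 nm value became -0.35 (adjusted p = 0.00212) with length and GC trends taken out and -0.23 (adjusted p = 0.0375) after quantile normalization.

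ID3 (ENSG00000117318, chr1:23557918-23559794), which acts alongside ID1 in angiogenesis, had 87.0, 74.7, 69.6 and 70.3 FPKM at 58 nm, 74.6, 62.8, 67.6 and 61.1 at 35 nm, and 64.0, 63.3, 64.7 and 63.7 in controls. The 58 nm libraries were all above the controls, and the 35 nm libraries overlapped both other groups. The changes were 0.23 at 58 nm against control (95% interval 0.077 to 0.38, adjusted p = 0.0918), 0.052 at 35 nm against control (95% interval -0.10 to 0.21, adjusted p = 0.60) and 0.18 at 58 nm against 35 nm (adjusted p = 0.124). With limma-voom the first was called (adjusted p = 0.0367), as was the third (0.0386; 0.0119 after quantile normalization), and with length and GC trends taken out the second turned to -0.18 (adjusted p = 0.00508) and the third grew to 0.30 (adjusted p = 0.000559). ID4 (ENSG00000172201, chr6:19837386-19840684) entered no test.

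**Figure D2:**
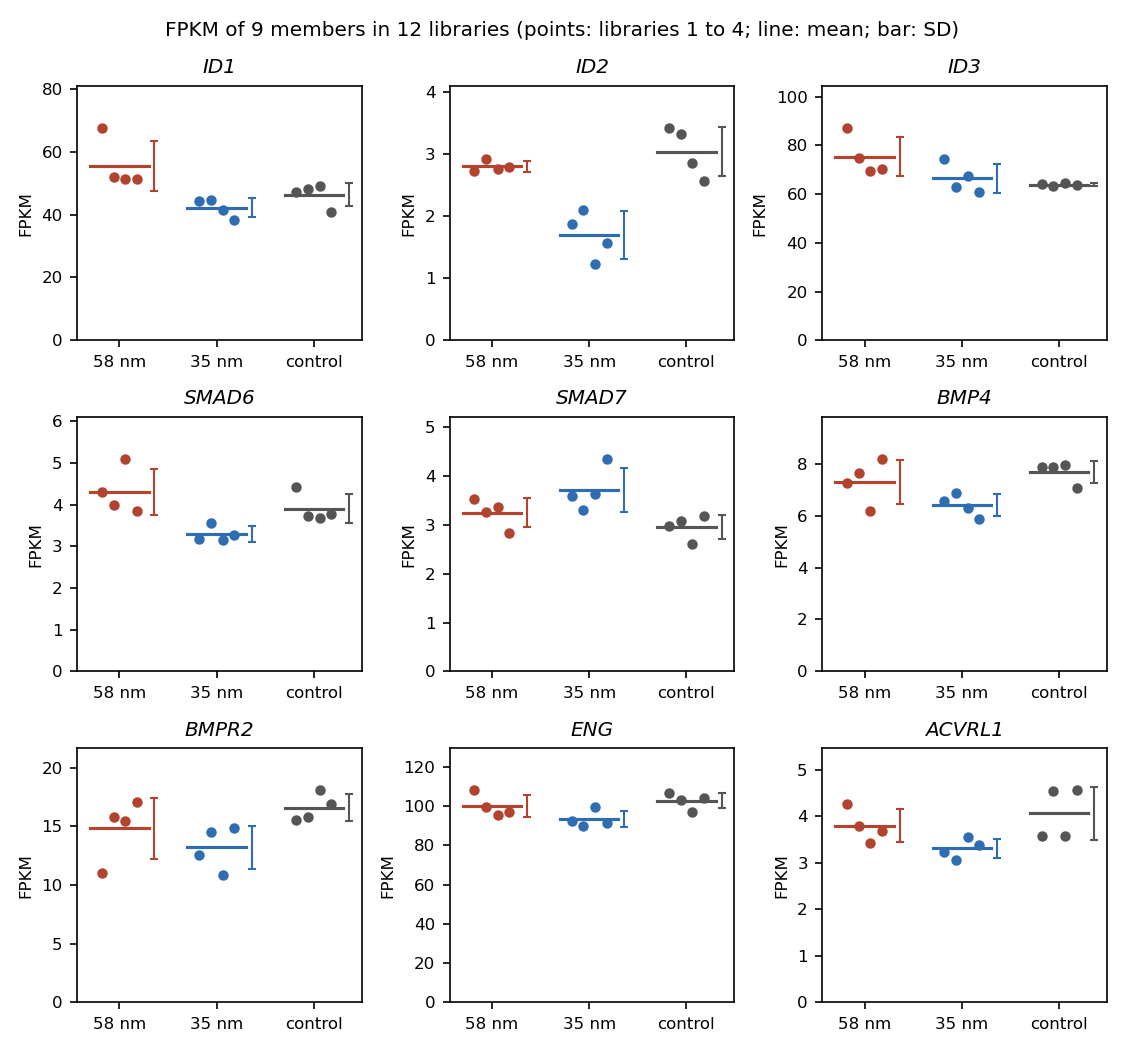
FPKM of the 9 members with reads, 1 panel each, with 58 nm left, 35 nm in the middle and control right; points are libraries 1 to 4, horizontal lines are means and bars are SDs (n = 4). For ID2 the 35 nm points, 1.22 to 2.11, lie under all others, and for ID1 library 1 of the 58 nm group stands at 67.4.

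Of the inhibitory SMADs, SMAD6 (ENSG00000137834, chr15:66702228-66782848), which acts mainly on BMP receptors, had 4.30, 3.99, 5.09 and 3.85 FPKM at 58 nm, 3.17, 3.57, 3.16 and 3.27 at 35 nm, and 4.42, 3.74, 3.68 and 3.79 in controls. The 35 nm libraries were the lowest, below all libraries of both other groups. SMAD6 was higher at 58 nm than at 35 nm by 0.30 (SE 0.0776, adjusted p = 0.0248), and its change at 35 nm against control was -0.19 (adjusted p = 0.0717). The first call was lost without library 3 of the 58 nm group or library 1 or 3 of the 35 nm group (adjusted p of 0.0706, 0.0675 and 0.0658), without the filter (0.0724) and with only these groups fitted (0.0502). The second passed with limma-voom (adjusted p = 0.0212), after removal of the trends (0.0250) and without library 3 of the 58 nm group (0.0396).

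SMAD7 (ENSG00000101665, chr18:48919853-48952052), which also brakes TGF-beta and activin receptors, had 3.53, 3.27, 3.36 and 2.84 FPKM at 58 nm, 3.59, 3.30, 3.63 and 4.34 at 35 nm, and 2.97, 3.07, 2.61 and 3.18 in controls. All 35 nm libraries lay above all controls, and the 58 nm libraries overlapped both groups. SMAD7 rose to 3.71 ± 0.444 FPKM at 35 nm, against 2.96 ± 0.246 in controls (log2 fold change 0.25, SE 0.0799, adjusted p = 0.0274). The changes at 58 nm were 0.10 against control (95% interval -0.071 to 0.27) and -0.15 against 35 nm (95% interval -0.32 to 0.025). The rise was 0.13 (adjusted p = 0.239) with length and GC trends taken out, and it was not called without 35 nm library 4 (adjusted p = 0.0804), control library 1 (0.0502) or control library 3 (0.0840), or without the filter (0.071).

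The ligand BMP4 (ENSG00000125378, chr14:53949736-53958761) had 7.26, 7.64, 6.16 and 8.16 FPKM at 58 nm, 6.58, 6.86, 6.29 and 5.87 at 35 nm, and 7.89, 7.86, 7.94 and 7.06 in controls. All 35 nm libraries lay below all controls, while the 58 nm libraries spanned both groups. BMP4 fell to 6.40 ± 0.423 FPKM at 35 nm, against 7.69 ± 0.417 in controls (log2 fold change -0.23, SE 0.0738, adjusted p = 0.0266). Its changes at 58 nm were -0.07 against control (95% interval -0.23 to 0.09) and 0.16 against 35 nm (adjusted p = 0.172). The fall was -0.39 (adjusted p = 0.00267) after removal of the trends; adjusted p was 0.0593 to 0.0722 when 35 nm library 3 or 4 or control library 1, 2 or 3 was left out, and 0.075 without the filter.

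Among the receptors, ENG (ENSG00000106991, chr9:127815012-127854756), the co-receptor, had 108, 99.6, 95.3 and 96.9 FPKM at 58 nm, 92.5, 90.0, 99.3 and 91.6 at 35 nm, and 106, 103, 97.2 and 104 in controls. One library at 35 nm, at 99.3, reached into the control range. ENG fell to 93.4 ± 4.10 FPKM at 35 nm, against 103 ± 3.94 in controls, a log2 fold change of -0.14 (SE 0.047, adjusted p = 0.0365). After removal of the trends this was -0.32 (adjusted p = 6.96e-06), and 58 nm was then also lower than control, by -0.14 (adjusted p = 0.0187; -0.041 and 0.675 as deposited) and higher than 35 nm by 0.18 (adjusted p = 0.00206; 0.096 and 0.203 as deposited). The fall at 35 nm was not called without 35 nm library 1, 2 or 4 or control library 1, 2 or 4 (adjusted p of 0.0760 to 0.0942), after upper-quartile rescaling (0.0906) or without the filter (0.0873). The antisense gene AL162586.1, at a mean of 1.79 FPKM, shares 7.95% of the exon bases of ENG, and as no strand setting is given their reads cannot be told apart there.

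ACVRL1 (ENSG00000139567, chr12:51906908-51923361), the type I receptor, had 4.27, 3.78, 3.42 and 3.69 FPKM at 58 nm, 3.24, 3.07, 3.55 and 3.37 at 35 nm, and 3.58, 4.54, 3.57 and 4.55 in controls. The 35 nm libraries lay below all controls, by a narrow margin for the highest of them. ACVRL1 fell to 3.31 ± 0.204 FPKM at 35 nm, against 4.06 ± 0.562 in controls (log2 fold change -0.23, SE 0.0827, adjusted p = 0.0481). It was -0.34 (adjusted p = 0.00467) after removal of the trends, but adjusted p rose to 0.0539 to 0.139 when any 35 nm library, control library 2 or 4, or 58 nm library 2 or 4 was left out, and to 0.0595 to 0.122 with only these groups fitted, with replicate numbers as a block, under upper-quartile or quantile scaling, or without the filter. At 58 nm the change was -0.074 against control (95% interval -0.25 to 0.10).

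BMPR2 (ENSG00000204217, chr2:202376936-202567751), the type II receptor, had 11.1, 15.8, 15.4 and 17.1 FPKM at 58 nm, 12.6, 14.5, 10.9 and 14.9 at 35 nm, and 15.6, 15.8, 18.1 and 16.9 in controls. All 35 nm libraries lay below all controls, and at 58 nm library 1 was the low one. The change at 35 nm against control was -0.31 (SE 0.121, adjusted p = 0.0615). It passed (adjusted p = 0.0115) without 58 nm library 1, which enters this comparison through the shared spread, and also without 35 nm library 4 (0.0459), with a filter at 5 FPKM (0.0421), after quantile normalization (0.0435), with the replicate block (0.0414) and with only these groups fitted (0.0220). It shrank to -0.095 (adjusted p = 0.378) with length and GC trends taken out. At 58 nm the change was -0.17 against control (95% interval -0.43 to 0.098), and -0.04 without library 1. BMPR2 is the longest member, with 11900 bases, and has the lowest GC content at 37.6%, where the other 8 tested members had 53.3% to 63.3%.

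**Figure D3:**
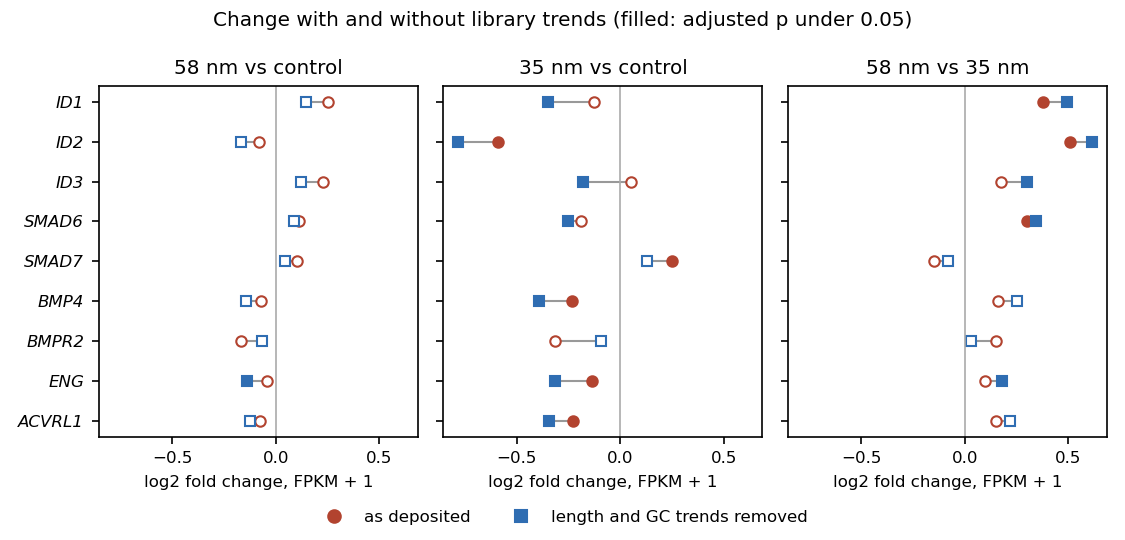
Log2 fold changes of the 9 members on the FPKM + 1 scale as deposited (circles) and with each library's trends with gene length and GC content taken out (squares), filled where the adjusted p was under 0.05. At 35 nm against control the squares lie left of the circles for all members except BMPR2, with ID1 at -0.35 and ENG at -0.32.

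The length and GC trends set the 35 nm libraries apart from the controls. Among 58 nm libraries only library 1 had trends of the same sign as at 35 nm. A technical trend and a response to particles that follows length or GC content cannot be told apart here. The fit with the trends taken out is therefore not read as the truer one. With the trends taken out, 7 members were called at 35 nm against control, namely ID1, ID2, ID3, SMAD6, BMP4, ENG and ACVRL1, all of them lower, and SMAD7 was not. In the same fit 27.6% of all genes were called, 1792 higher and 1572 lower of 12176. Between the particles 5 were called, all higher at 58 nm (ID1, ID2, ID3, SMAD6 and ENG), where 11.3% of all genes were called, 538 higher and 834 lower. ID2 was called in both comparisons with 35 nm particles either way, and the same 35 nm libraries enter both.

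The rest of the pathway was read from 10 lists with 76 further genes. Like the members, these lists were chosen with earlier results of these data known, so setting their counts beside all genes is description only. Of the 76 genes, 47 passed the filter of 1 FPKM. At 58 nm against control 6 rose and 2 fell, at 35 nm against control 14 rose and 6 fell, and at 58 nm against 35 nm 1 was higher and 9 were lower. Over all genes 2.18% were called higher and 1.95% lower in the first comparison, 20.2% and 15.2% in the second, and 3.54% and 7.81% in the third. The medians over the 47 were 0.028, 0.041 and -0.036. Of 12 other BMP ligands only GDF5 passed the filter, and BMP2, BMP6, BMP7, BMP10 and GDF2 averaged under 0.1 FPKM over the 12 libraries. GDF5 rose at 35 nm, to 5.19 ± 0.640 FPKM, against 3.70 ± 0.613 in controls (adjusted p = 0.0114, but 0.266 with length and GC trends taken out).

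Secreted antagonists, which bind BMPs or activins outside the cell, included NOG, whose change at 35 nm was the largest among the 47 genes. Of 7 that passed the filter, 3 rose at 58 nm, 4 rose at 35 nm and none fell in either comparison with control, where 2.18% of all genes rose at 58 nm and 20.2% rose and 15.2% fell at 35 nm. NOG (noggin) rose to 4.93 ± 0.114 FPKM at 58 nm and 6.61 ± 1.10 at 35 nm, against 2.88 ± 0.446 in controls. The ratios of these means to control were 1.71 and 2.30. On the FPKM + 1 scale the log2 fold changes of NOG were 0.62 and 0.97 (adjusted p = 0.00316 and 1.70e-05). GREM1 (gremlin) rose to 24.5 ± 0.844 FPKM at 58 nm and 33.5 ± 1.59 at 35 nm, against 20.4 ± 1.14 in controls (adjusted p = 0.0112 and 6.15e-07). FST (follistatin), which traps activins and some BMPs, rose at 35 nm to 24.5 ± 2.30 FPKM, against 15.7 ± 0.944 in controls (adjusted p = 0.000511), and FSTL1 rose by 0.17 at 58 nm and by 0.34 at 35 nm. FSTL1 was not called at 58 nm after quantile normalization (adjusted p = 0.0607). Set directly against each other, 58 nm was lower than 35 nm for GREM1 by -0.44 (adjusted p = 0.000247), for FST by -0.43 (0.0138) and for NOG by -0.35 (0.0409). The NOG call was lost in 14 of 21 alternatives, including limma-voom, removal of the trends and leaving out 58 nm library 2, 3 or 4, 35 nm library 1, 3 or 4 or control library 3 or 4 (adjusted p up to 0.257 over all alternatives).

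Among co-receptors, RGMB, which binds BMPs directly, rose at 35 nm by 0.47, to 15.3 ± 0.500 FPKM, against 10.8 ± 0.583 in controls (adjusted p = 2.64e-05), and was lower at 58 nm than at 35 nm (-0.34, adjusted p = 0.00152). CRIM1, a BMP-binding membrane protein listed with the co-receptors, rose at 35 nm by 0.32 (adjusted p = 0.000147). Of 6 other kinase receptors tested, BMPR1A fell at 35 nm by 0.21 (adjusted p = 0.0392), a call that was lost in 11 of 22 alternatives, including removal of the trends (-0.043) and leaving out 35 nm library 1, 3 or 4 or control library 1, 2 or 3. SMAD9, a signal-carrying SMAD that is also a BMP target, fell at 35 nm to 2.70 ± 0.228 FPKM, against 3.47 ± 0.417 in controls (adjusted p = 0.0145, or 0.0534 with the replicate block and the length and GC trends taken out), and was higher at 58 nm than at 35 nm by 0.37 (adjusted p = 0.00794). SMAD3, which carries TGF-beta signals, fell to 34.3 ± 1.62 FPKM at 58 nm and 35.1 ± 1.48 at 35 nm, against 41.0 ± 1.32 in controls (adjusted p = 0.00607 and 0.00221). Of the 10 intracellular modulators, SMURF2, a ubiquitin ligase that works with SMAD7, rose at 35 nm by 0.33 (adjusted p = 0.000672), and none was called in the other comparisons.

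Of 6 TGF-beta targets, 3 rose and 1 fell at 58 nm, and 4 rose and 1 fell at 35 nm, where 4.13% and 35.4% of all genes were called. CTGF, a matricellular protein, rose by 0.42 at 58 nm and 0.53 at 35 nm (adjusted p = 1.25e-05 and 4.24e-07), and LTBP2 by 0.35 at 35 nm. TGFBI, a matrix protein of the same list, fell by 0.17 at 58 nm and 0.19 at 35 nm (adjusted p = 0.0199 and 0.00158). The 58 nm fall was not called without 58 nm library 2 or 3 or control library 2 (adjusted p up to 0.0689). COL1A1 rose by 0.20 at 58 nm (adjusted p = 0.0304), a call that was lost in 9 of 22 alternatives, among them leaving out 58 nm library 2 or 3 or control library 2, 3 or 4. At 35 nm COL1A1 rose by 0.29 (adjusted p = 0.000583), a call lost only after quantile normalization (0.0728). The activin subunit INHBA rose at 35 nm by 0.36 (adjusted p = 0.00316). Of 6 other BMP targets only ATOH8 passed the filter, and it was not called in any comparison.

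E proteins, which ID proteins bind, moved both ways at 35 nm: TCF3 rose to 38.5 ± 2.05 FPKM, against 30.7 ± 2.08 in controls (adjusted p = 0.000395), while TCF12 fell to 12.7 ± 0.946, against 16.2 ± 0.912 (adjusted p = 0.00302). TCF4 fell by 0.23 (adjusted p = 0.0213). It was not called without 35 nm library 1 or 3 (adjusted p up to 0.0619) or after quantile normalization. After removal of the trends it stood at 0.017 (adjusted p = 0.877). None of the 3 was called at 58 nm against control. Among the 9 pathway genes lower at 58 nm than at 35 nm were INHBA, RGMB, CRIM1, NOG, GREM1, FST, FSTL1 and TCF3. INHBA (-0.27, adjusted p = 0.0377) lost that call without 58 nm library 2, 3 or 4 or 35 nm library 1, 2 or 4 (adjusted p up to 0.101), without the filter (0.114) and with only these groups fitted (0.0839). TCF3 (-0.18, adjusted p = 0.0355) lost it without 58 nm library 2, 3 or 4 or 35 nm library 1, 2 or 3 (up to 0.0955), without the filter (0.0943), after quantile normalization (0.118), with the replicate block (0.0574) and with length and GC trends taken out, without the block (0.0691) or with it (0.127). After quantile normalization CRIM1 was at -0.089 (adjusted p = 0.281; -0.18 as deposited) and FSTL1 at -0.088 (0.0908; -0.17 as deposited), and neither was called. CRIM1 was also not called with only these groups fitted (0.0509), nor FST without the filter (0.0524).

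**Figure D4:**
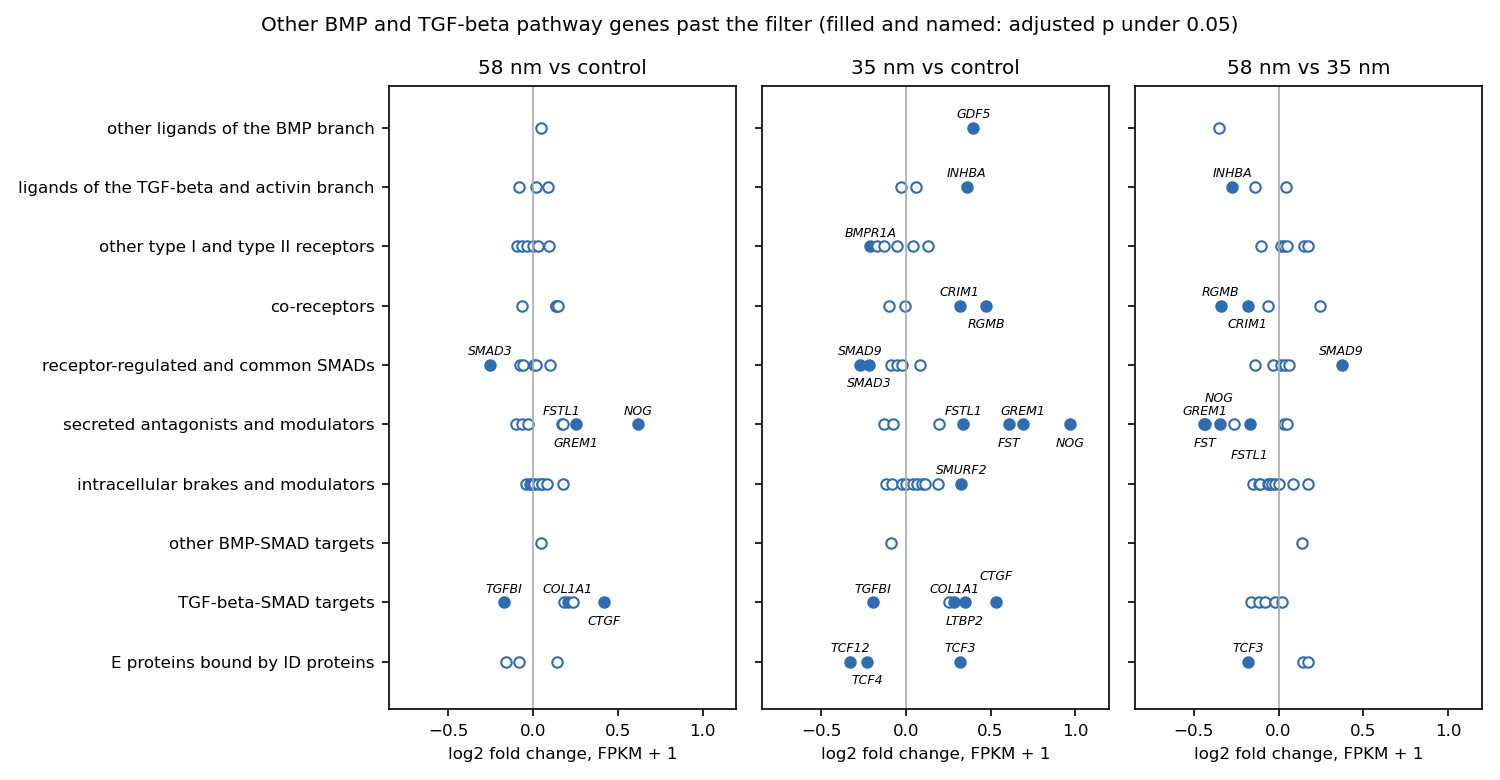
Log2 fold changes on the FPKM + 1 scale of other pathway genes past the filter by list in the 3 comparisons, 1 point a gene with 1 of the 47 not drawn, filled and named where the adjusted p was under 0.05. NOG and GREM1 lie right of 0 in both comparisons with control and left of 0 at 58 nm against 35 nm.

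Genes whose profile over the 12 libraries was most like that of ID1 and ENG were looked up among 7659 other genes with mean levels of 5 FPKM or more, by the root mean square difference of log2 values after each gene's mean was subtracted. For ID1 these were KDELR3, IGFBP2 and HTRA1, at 0.0937, 0.108 and 0.123, where the profile of ID1 itself had a root mean square of 0.199. For ENG they were GRN, ULK1 and ATG13, at 0.0404, 0.0415 and 0.042, against 0.0813 for ENG itself. HTRA1, the third for ID1, averaged 112 ± 8.13 FPKM at 58 nm, 92.4 ± 3.66 at 35 nm and 93.0 ± 3.17 in controls.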

How the data were processed

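RNA from 12 libraries of hCMEC/D3 cells was analysed, 4 per group. The authors deposited FPKM values for 58735 genes in each library together with a gene length. Per the submitters' processing notes, Bowtie 0.12.2 and hg19 were used, but the identifier, position and exon length of all 58735 genes equalled GENCODE 29 on GRCh38, so coordinates are GRCh38 as deposited and the alignment build is unresolved. No source used here gives the counter, its strand setting or its treatment of multiply aligned reads. Multiplied by gene length, 100% of values were whole multiples of 1 read within 0.01 reads, which gave the gene reads.

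Values were tested as log2(FPKM + 1) with limma 3.58.1 in R 4.3.3 (trended, robust prior), for 12176 genes averaging 1 FPKM or more, in 1 model of 3 group means over all 12 libraries. The pseudocount of 1 understates changes of low genes. P-values are two-sided and adjusted by Benjamini-Hochberg over all genes tested, and a call is an adjusted p under 0.05. The fit was run on counts simulated without length or GC trends and without an outlying library. That run therefore says nothing on those features of these data. Alternatives were another pseudocount, other filters, other scalings, limma-voom on recovered reads, removal of length and GC trends (loess per library, GC of the longest transcript, 58676 genes with a value), a replicate block, fits of the groups compared only, and leaving out each library. The members and lists were chosen with earlier results of these data known. Pathway genes were named by a rule: up to 3 called genes in each direction with the largest change per list and comparison, and others named were chosen after their values were seen. The values of 1 pathway gene are not reported here.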

Additional observations from a re-analysis of the deposited data

Results flagged for a closer look

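Within groups of 4 libraries, 3 of the 27 groups of members with reads held 1 library far from the rest by Dixon's test, where chance gives about 1 in 20. ID1 was at 67.4 FPKM in library 1 of the 58 nm group, against 51.2 to 52.1 in the others, and the log2 fold change against 35 nm without it was 0.28. SMAD6 was at 4.42 FPKM in control library 1, the next being 3.79. BMP4 was at 7.06 FPKM in control library 4, the next being 7.86.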

How the results depend on the processing

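Over 27 changes of members, 13 kept their direction and side of the threshold under every alternative, ID2 in all 3 comparisons among them. Of the changes called in the main fit, only those of ID2 at 35 nm against control and between the particles were among the 13. The rest of the 13 were called in no fit. Of the recomputed values 518 kept their side of the threshold, with any sign changes that had no call in either fit counted among them. Another 39 lost a call, 23 gained one and 2 reversed with a call. The 2 were ID3 at 35 nm against control, at -0.18 with length and GC trends taken out, with and without the replicate block. TCF4 at 35 nm reversed to 0.017 in both fits. For 58 nm against control 0 members were called, but 1 with limma-voom (ID3) and 1 after removal of the trends with or without the block (ENG). Of the pathway genes 8 were called there, or 5 after quantile normalization. The share of all genes called was 4.13%, against 5.90% with limma-voom and 3.68% after quantile normalization. After removal of the trends it was 3.98%, or 3.055% with the block as well. For 35 nm against control 5 members were called, 1 without the filter, 3 with a filter at 5 FPKM, 3 after upper-quartile rescaling and 2 to 6 when 1 library was left out. The share of all genes called there was 35.4%, against 11.2% without the filter, 47.5% at 5 FPKM and 35.35% after upper-quartile rescaling. With 1 library left out that share was 28.6% to 38.45%. Without the filter 252 genes were called at 58 nm against control, against 503 with it, and 723 against 1382 between the particles. For 58 nm against 35 nm 3 members were called, or 1 without the filter, 1 with a filter at 5 FPKM and 5 after quantile normalization. Removal of the trends with or without the block gave 5, and leaving out 1 library gave 2 to 3. Of the pathway genes 10 were called (1 higher and 9 lower), or 6 without the filter and 7 to 12 with 1 library left out. With limma-voom 14 were called (4 higher and 10 lower), and after removal of the trends 12 (3 higher and 9 lower). The cause of these shifts was not tested. Between the particles the share of all genes called was 11.4%, against 2.44% without the filter, 19.2% at 5 FPKM and 10.1% after quantile normalization. It was 14.8% with limma-voom, 11.3% after removal of the trends and 9.60% with the block as well. With 1 library left out it was 5.94% to 19.1%. A filter at 5 FPKM leaves out ID2, SMAD6, SMAD7 and ACVRL1 by construction. Libraries share replicate numbers between groups, yet same-numbered libraries did not deviate together (correlation -0.065 to 0.159, over 0.1 in 1 of 12 pairs, and the own number correlated best in 4 of 24 cases), so the numbers are not taken as pairs. Under the replicate block 5 members were called at 35 nm against control, where 34.4% of all genes were called, with BMPR2 gained and ACVRL1 lost. In that fit 0 members were called at 58 nm against control (3.72% of all genes) and 3 at 58 nm against 35 nm (10.45% of all genes). At 27 to 80 reads per library ID2 had the lowest depth of the 9 members tested.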
